A study of Mus musculus with 4 samples.

Results

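Genes of the primary cilium and of the centrosome were followed in cultured mouse hippocampal neurons. They were taken from the deposited expression table by name: intraflagellar transport genes (Ift, Ttc30 and Ttc21b), Bardet-Biedl syndrome genes (Bbs and Ttc8), transition zone genes (Tctn, Mks1, Cc2d2a, Rpgrip1l and Nphp) and numbered Cep genes. The names matched 54 of 23453 rows, which carry 52 gene symbols because Cep192 and Cep350 each have a pair of rows. The set was selected on the fold of AP bursting over control: it was proposed after Ttc30b had been seen among the largest falls. Differences of these genes between the groups are therefore a description, and the test results beside them support nothing.

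The AP bursting group had 2 libraries, from neurons given 50 µM bicuculline for 4 h. Bicuculline blocks GABA-A receptors, so that the network loses its inhibition and fires action potentials (AP) in bursts. The control group had 2 libraries, from neurons that received only the solvent DMSO and kept their basal synaptic activity. All cultures were prepared from newborn C57BL/6NCrl mice and were treated on day 12 in vitro, and the series text names 2 experiments on separate cell preparations. The RNA came from whole cultures, so fewer cells of a type and less RNA per cell cannot be told apart.

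Most neurons carry a single primary cilium, an antenna built on a modified centriole, the basal body. Its axoneme is built and turned over by intraflagellar transport: IFT-B trains, driven by kinesin, carry cargo to the tip, and IFT-A trains, driven by dynein, return it. The BBSome is a coat-like complex that moves membrane receptors out of the cilium, and the transition zone is the gate at its base. Cep proteins build the centrosome and basal body, and several of them, such as Cep164 and Cep290, are needed to start a cilium.

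The 3 Ttc30 rows had the lowest folds of all members, and their sequences are shown first because the genes are near copies. They encode the tetratricopeptide-repeat subunit of IFT-B known as IFT70 and lie side by side on chromosome 2, with 0 other genes between them in the RefSeq order for GRCm38.p6. Each has 1 exon and a coding sequence of 1992 bases in GENCODE vM21. Ttc30b is 94.9% identical to Ttc30a1 and 94.9% to Ttc30a2, and Ttc30a1 is 95.1% identical to Ttc30a2. All 3 share 1843 of the 1992 positions. The 90 coding bases with the most differences (bases 547 to 636, GRCm38, minus strand, 5′ to 3′) follow, with the 23 positions that are not alike in all 3 genes in capitals.
Ttc30b (chr2:75937772-75937861): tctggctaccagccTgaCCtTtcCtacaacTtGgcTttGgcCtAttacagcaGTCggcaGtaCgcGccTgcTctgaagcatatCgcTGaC
Ttc30a1 (chr2:75981102-75981191): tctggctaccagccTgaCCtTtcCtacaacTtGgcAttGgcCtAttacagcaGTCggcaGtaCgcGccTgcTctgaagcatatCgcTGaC
Ttc30a2 (chr2:75977531-75977620): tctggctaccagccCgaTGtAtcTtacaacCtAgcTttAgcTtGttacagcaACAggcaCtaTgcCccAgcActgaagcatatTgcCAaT

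A read from the longest run that all 3 genes share, 212 bases (coding bases 1327 to 1538), would fit each of them. It is shown from Ttc30b, with no capitals because no position differs.
Ttc30b (chr2:75936870-75937081): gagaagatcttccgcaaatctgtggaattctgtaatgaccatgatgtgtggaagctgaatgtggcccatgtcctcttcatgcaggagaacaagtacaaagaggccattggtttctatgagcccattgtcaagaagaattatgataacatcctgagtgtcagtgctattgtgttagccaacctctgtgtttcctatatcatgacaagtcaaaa

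Of all windows of 50 bases in the coding sequence, 51.9% occur only in Ttc30b among the 3 genes, 39.9% only in Ttc30a1 and 34.0% only in Ttc30a2. The untranslated parts of the transcripts, which have 2737, 3721 and 2431 bases in the same order of genes, were not compared. How reads with several matches were counted is not given in the sources used here, so the split of reads among the 3 rows is uncertain.

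Promoters were searched for the X-box, the site of RFX factors known for many ciliary genes, written as GTTNCC, then NN, then GGNAAC, and read on both strands. Of the 52 member symbols, 42 had a promoter in the RefSeq table (250 bases before to 50 after the start). The others, Ttc30b among them, were not searched, so whether they hold these motifs is not known here. The X-box was in 4 of these 42 (9.52%), against 143 of 27025 genes with a promoter (0.529%). Its half-site GTTGCCNNG, which overlaps it, was in 12 of 42 (28.6%), against 5.74% of all. The cAMP response element TGACGTCA, a site of the activity-regulated factor CREB, was in 2 of 42, Cep57 and Ift57 (4.76%), against 2.03% of all and 3.76% of the 9249 genes with a promoter and a mean of at least 50 normalized reads. On those 9249 genes the X-box share was 0.681% and the half-site share 6.58%. A match is a run of letters and not a measured site. The 4 X-box matches are shown 5′ to 3′ on the strand of the gene (GRCm38.p6), with the motif in capitals.
Ttc30a2 (chr2:75978180-75978221, minus): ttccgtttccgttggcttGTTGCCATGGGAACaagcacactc
Mks1 (chr11:87853173-87853214, plus): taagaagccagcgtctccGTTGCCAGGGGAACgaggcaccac
Bbs7 (chr3:36613479-36613528, minus): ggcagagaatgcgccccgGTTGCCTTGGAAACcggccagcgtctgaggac
Tctn1 (chr5:122264411-122264432, minus): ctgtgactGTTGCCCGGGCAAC

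In Ttc30a2 and in Mks1 the motif ends 10 bases before the start of the gene, and in Bbs7 107 bases before it, while the Tctn1 match lies after the start. The genes with an X-box had different folds: the log2 fold of the group means, AP bursting over control, was -1.63 for Ttc30a2, -0.39 for Tctn1, -0.33 for Mks1 and -0.31 for Bbs7.

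The deposited table gives 1 mean per group, in reads after the authors' scaling, called normalized reads here. Values of single libraries were worked out from these means. Each group has a deep and a shallow library: 24376680 and 12480006 reads in AP bursting, 20954659 and 13337809 reads in controls, over genes that could be worked out (78.5% and 70.2% of the signal). Libraries of like depth were set against each other, which gives a deep and a shallow pair. This pairing is an inference from the data, and which preparation a library came from is not given. A fold is AP bursting over control throughout, with n = 2 libraries per group, and a log2 fold of -1 is a 2-fold lower level.

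Most members were lower under AP bursting. The deposited mean was lower in 46 of 54 rows and higher in 8. Among 13939 genes of the table with a mean of at least 50 normalized reads over both groups, 50.3% were lower. The median log2 fold of the members was -0.36 (quartiles -0.75 and -0.15), against -0.0022 over those genes (quartiles -0.24 and 0.23). Since the rule used this contrast, nothing is read from these counts beyond the description. A total of 50 rows reached a mean of 50; Cep152, Cep72, Cep55 and 1 row of Cep192 did not.

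**Figure D1:**
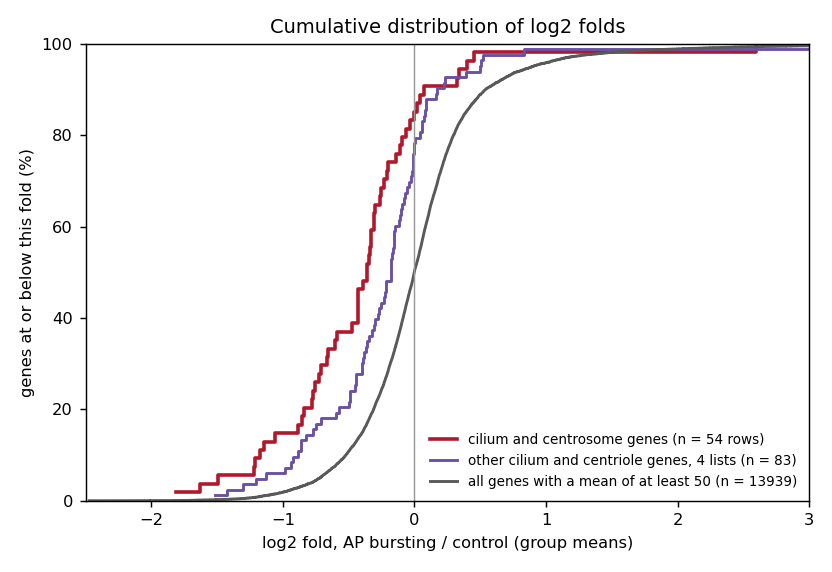
Cumulative share of genes (vertical axis, %) at or below each log2 fold of AP bursting over control (horizontal axis). The curve of the 54 member rows lies left of the curve of 13939 genes with a mean of at least 50, with medians of -0.36 and -0.0022, and the 83 genes of 4 further cilium and centriole lists lie between them.

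The shift was seen in both pairs of libraries. Lower rows numbered 45 of 54 for the deep pair and 43 for the shallow pair, with median log2 folds of -0.35 and -0.54. A total of 40 rows were lower in both pairs and 6 higher in both, while 35% of all worked-out genes with a mean of at least 50 were lower in both. In 21 of 54 rows both AP bursting libraries lay below both control libraries (11.7% of all such genes), and in 3 rows, Ift20, Cep55 and 1 row of Cep192, both lay above (11.5%). The normalized reads of the 54 rows summed to 22241 (deep) and 17874 (shallow) in AP bursting libraries, against 26825 and 22968 in the control libraries. The AP bursting sum was the smaller one at either depth.

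In the authors' deposited table, 0 of 54 rows had an adjusted p below 0.05 in either direction, where 0.61% of all rows were called higher and 0% lower. The smallest adjusted p was 0.179, for Cep55, and the other 53 rows had 1. limma without a replicate block called 0 members and 0% of all 20223 genes in either direction; at an unadjusted p below 0.05 it had 5 members (the 3 Ttc30 rows, Ttc8 and Cep55) and 664 genes in all. limma with the pair as a replicate block called 16 members lower and 1 higher after Benjamini-Hochberg adjustment, where 6.1% of all genes were called lower and 6.84% higher. The 16 were the 3 Ttc30 rows, Ttc21b, Ift74, Ttc8, Bbs12, Rpgrip1l, Cc2d2a and the Cep genes Cep68, Cep70, Cep97, Cep135, Cep164, Cep250 and Cep290; the higher one was Cep55. That fit rests on a variance trend across genes, and without the trend it called 0 members and 0 of all 20223 genes; the calls of the block fit below have the same limit.

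**Figure D2:**
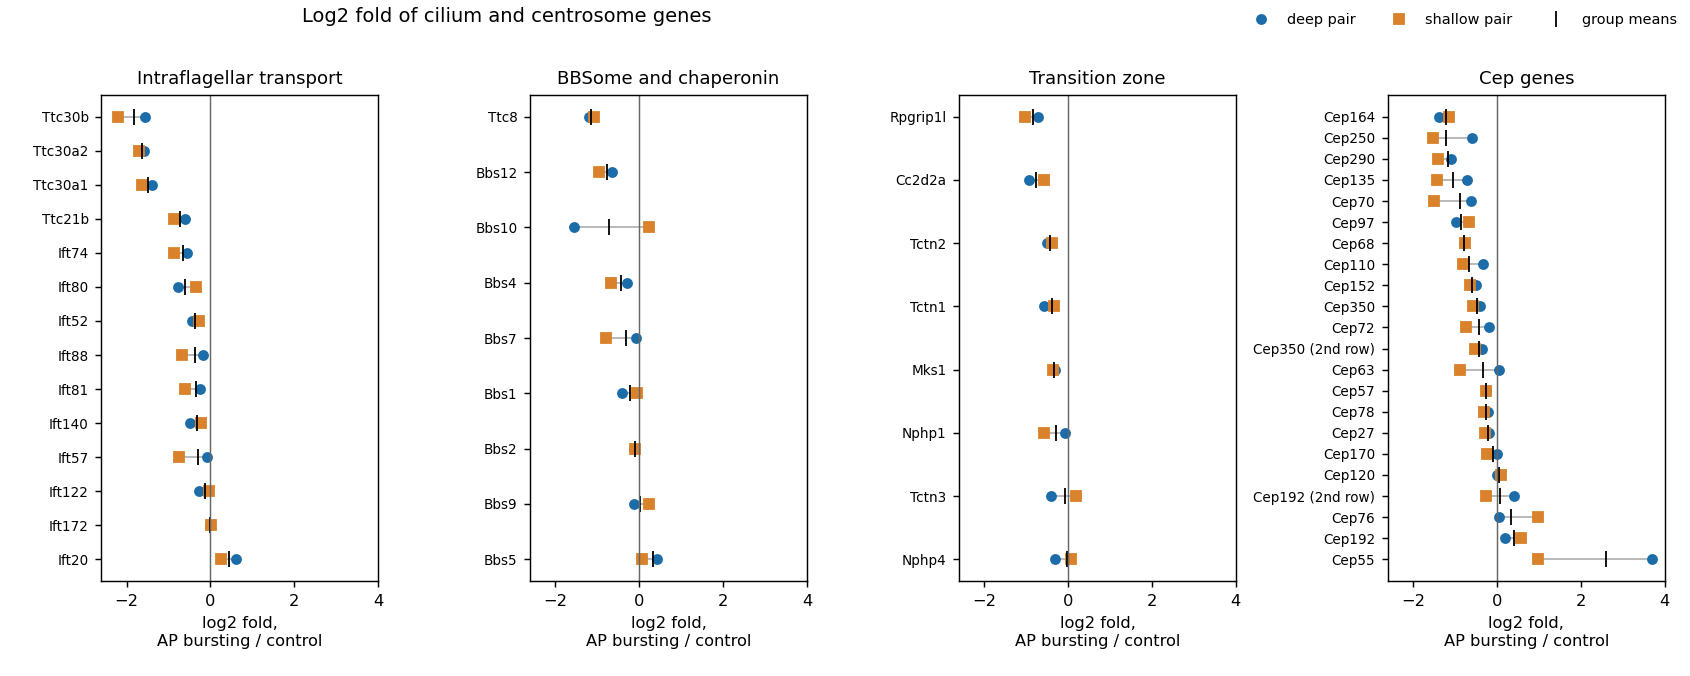
Log2 fold of AP bursting over control (horizontal axis) for 53 of the 54 member rows, by role, in the deep pair (circles), the shallow pair (squares) and from the deposited group means (ticks). The Ttc30 rows lie lowest at -1.81, -1.63 and -1.49, all transition zone rows shown have group means below 0, and Cep55 lies far to the right at 2.59.

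Among the intraflagellar transport rows, 13 of 14 had a lower mean under AP bursting, with a median log2 fold of -0.36. Ttc30b (ENSMUSG00000075273) had 147 (deep) and 74.2 (shallow) normalized reads under AP bursting, against 437 and 340 in controls; values below keep this order of libraries. Every AP bursting library was below every control library, and the group means of 111 ± 51.6 and 389 ± 68.4 (SD, n = 2 each) gave a fold of 0.285. The deep pair gave a log2 fold of -1.57 and the shallow pair -2.20. Ttc30b ranked 10 from the lowest fold among the 13939 genes, Ttc30a2 22 and Ttc30a1 38. These values rest on 187 and 49 reads in AP bursting libraries and 583 and 311 reads in control libraries.

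The neighbouring copies had similar folds. Ttc30a1 (ENSMUSG00000075271) had 99.2 and 57.5 normalized reads under AP bursting, against 262 and 179 in controls, a fold of 0.355. Ttc30a2 (ENSMUSG00000075272) had 55.1 and 34.8 under AP bursting, against 166 and 113 in controls, a fold of 0.322. For both genes the groups did not overlap, and the deep and shallow pairs gave close log2 folds: -1.40 and -1.64 for Ttc30a1, and -1.59 and -1.69 for Ttc30a2. Because of the shared stretches shown above, the 3 rows may not be separate measurements, which was not tested. Summed over the 3 rows, normalized reads were 301 and 167 in AP bursting libraries, against 866 and 632 in control libraries.

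Without the Ttc30 rows, the 8 other IFT-B rows had a median log2 fold of -0.35, and 7 of them were lower. Both AP bursting libraries lay below both control libraries in 0 of the 8 (11.7% of all worked-out genes with a mean of at least 50). In 1 row, Ift20, both lay above (11.5%). Ift74, which with Ift81 binds tubulin, had 279 and 107 normalized reads under AP bursting, against 413 and 197 in controls, and the groups overlapped although both pairs were lower. Ift88, whose loss in mouse removes cilia, had 269 and 144 against 302 and 229, log2 folds of -0.17 and -0.67 in the deep and shallow pair. Ift172, a large adaptor of the IFT-B train, had 702 and 1063 under AP bursting, against 709 and 1059 in controls; the log2 folds of the pairs were -0.014 and 0.0053. Ift20, the IFT protein also found at the Golgi apparatus, was the only one of the 14 with a higher mean, at 717 and 500 under AP bursting against 468 and 420 in controls, a fold of 1.37. Ift74, Ift88 and the names of genes below that lie outside the naming rule were picked after their values were seen.

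All 3 IFT-A rows had lower means, with a median log2 fold of -0.33. Ttc21b, the IFT-A subunit IFT139, had 166 and 139 normalized reads under AP bursting, against 251 and 253 in controls, a fold of 0.606 with no overlap. The control libraries were close to each other here, while the AP bursting libraries differed more. Ift140, another IFT-A core subunit, had 695 and 1061 under AP bursting, against 968 and 1241 in controls, and the groups overlapped. Ift122, also of the IFT-A core, had 417 and 566 against 500 and 583, log2 folds of -0.26 and -0.04 in the deep and shallow pair.

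**Figure D3:**
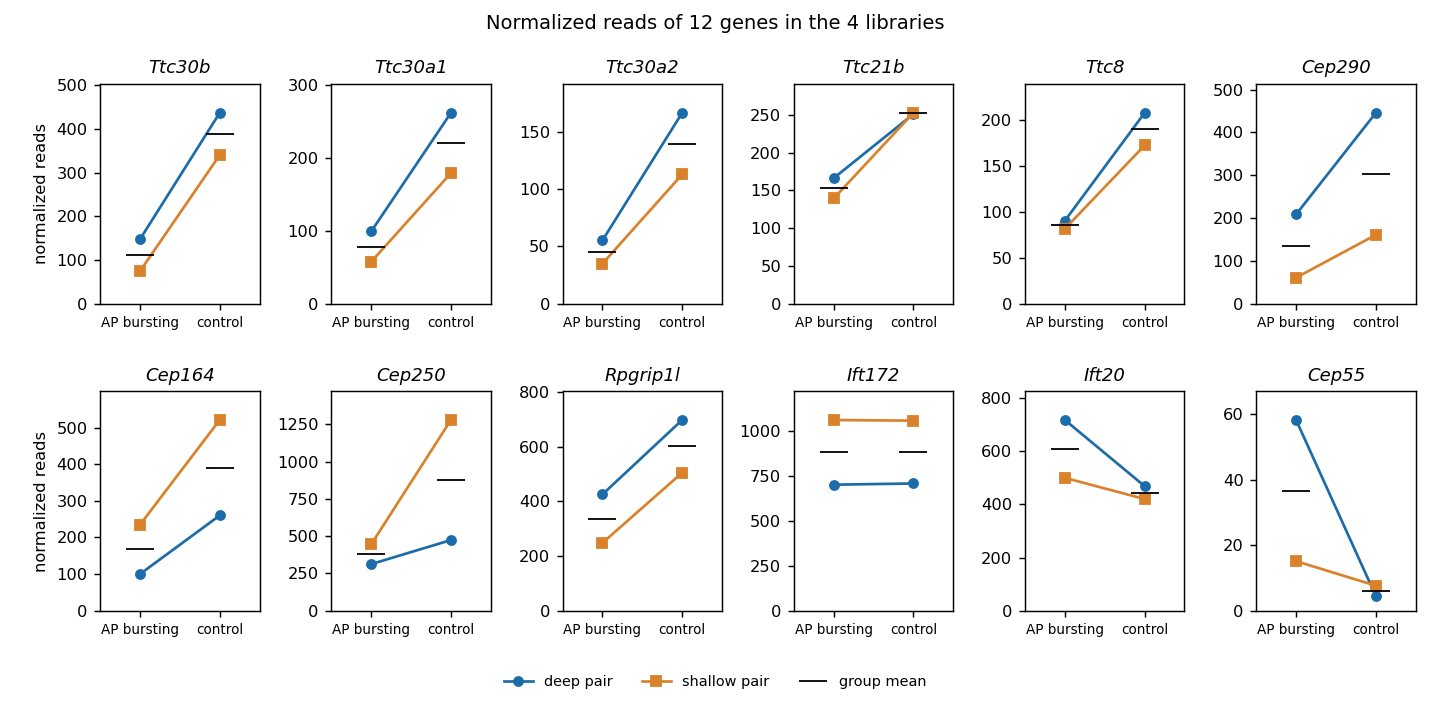
Normalized reads (vertical axes, from 0) of 12 genes in each library; lines join the AP bursting and the control library of the deep pair (circles) and of the shallow pair (squares), and bars mark group means (n = 2). Both lines climb toward control for the genes from Ttc30b to Rpgrip1l, lie flat for Ift172, and go the other way for Ift20 and Cep55.

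Of 9 rows of the Bardet-Biedl group, 7 had lower means, with a median log2 fold of -0.31. The clearest gap was in Ttc8, the BBSome subunit BBS8, which had 90.5 and 81.7 normalized reads under AP bursting, against 208 and 173 in controls. Its groups did not overlap, the fold was 0.452, and the pairs gave log2 folds of -1.20 and -1.08. Bbs12, a part of the chaperonin that assembles the BBSome, had 89.0 and 53.0 under AP bursting, against 139 and 103 in controls, again without overlap. Its partner Bbs10 had 38.6 and 65.1 against 114 and 55.8, lower in the deep pair (log2 fold -1.56) and higher in the shallow pair (0.22).

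Bbs1, Bbs4, Bbs7 and Bbs9, which like Ttc8 are BBSome subunits, had smaller differences than Ttc8. Bbs4 had 873 and 403 normalized reads under AP bursting, against 1068 and 646 in controls, and Bbs7 had 373 and 135 against 394 and 235. Both were lower in each pair with overlapping groups. Bbs1, which links the BBSome to the small GTPase Arl6, had 928 and 1128 against 1244 and 1171, without overlap but with a log2 fold of only -0.05 in the shallow pair. Bbs9 had 328 and 259 against 358 and 221, with pairs that differed in sign, and Bbs5 was higher in both pairs (log2 folds 0.43 and 0.06).

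All 9 transition zone rows had lower means, with a median log2 fold of -0.33; 7 were lower in both pairs. Rpgrip1l, a scaffold of the transition zone, had 426 and 248 normalized reads under AP bursting, against 698 and 505 in controls, a fold of 0.560 with no overlap. Cc2d2a, a membrane-associated partner of the tectonic complex, had 134 and 144 against 256 and 213, a fold of 0.591 with no overlap. For both genes every AP bursting library was the lower one.

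The tectonics, proteins of the ciliary gate, differed less. Tctn2 had 197 and 345 normalized reads under AP bursting, against 279 and 453 in controls, and Tctn1 had 52.0 and 182 against 77.2 and 230. Each was lower in both pairs, but the difference between deep and shallow libraries exceeded that between groups. Tctn3 and Nphp4 were lower in the deep pair (log2 folds -0.42 and -0.31) and higher in the shallow pair (0.20 and 0.08).

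Of the 22 Cep rows, 17 had lower means, with a median log2 fold of -0.43, and 4 were at least 2-fold lower. Of the 50 members with a mean of at least 50, 8 were at least 2-fold lower (1.87% of all genes at that mean) and 0 at least 2-fold higher (4.12%). Cep55, below that mean, was the 1 member at least 2-fold higher. Cep164, which anchors the basal body through the distal appendages, had 99.97 and 235 normalized reads under AP bursting, against 260 and 521 in controls, a fold of 0.429. Cep290, a bridge of the transition zone, had 209 and 60.5 against 446 and 161, a fold of 0.444. Its groups overlapped because the deep libraries were far above the shallow ones, but it was lower in both pairs, with log2 folds of -1.10 and -1.41.

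Cep250, which links the paired centrioles, had 313 and 445 normalized reads under AP bursting, against 474 and 1279 in controls. The groups did not overlap, and the shallow pair (log2 fold -1.52) differed more than the deep pair (-0.60). Cep135, a centriole assembly protein, had 115 and 78.7 against 190 and 213, a fold of 0.481 with no overlap. Cep350, a large centriolar protein, had 974 and 699 against 1288 and 1034 in its main row and 114 and 81.7 against 147 and 117 in its other row, log2 folds of -0.47 and -0.43 from the group means. The second rows of Cep350 and Cep192 have an Ensembl identifier that is not in GENCODE vM21, so what they measure beyond the main row is uncertain.

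Some Cep genes showed little difference or were higher. Cep170, a microtubule-binding subdistal appendage protein, had 4783 and 3153 normalized reads under AP bursting, against 4761 and 3712 in controls. Cep120, which acts in centriole elongation, had 1953 and 1259 against 1949 and 1175, so the deep pair was level. Cep192, a recruiter of pericentriolar material, had 145 and 204 against 127 and 138 in its main row, higher without overlap.

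Cep55, known for the final cut of cell division, stood apart with 58.3 and 15.1 normalized reads under AP bursting, against 4.50 and 7.66 in controls, a fold of 6.04. In reads these were 74 and 10, against 6 and 7. The log2 fold was 3.70 in the deep pair and 0.98 in the shallow pair, where it rests on few reads. Of the markers of dividing cells, 7 of 16 had a higher mean and 9 a lower one, with a median log2 fold of -0.10. Their summed level was 2272 and 2423 normalized reads under AP bursting, against 2026 and 2040 in controls. The higher sums rest on Pcna, which alone had a group mean of 1093 under AP bursting and 619 in controls.

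The deep and the shallow library of a treatment differed more than the treatments did. Across 13644 genes, log2 levels of the deep and shallow library had r = 0.872 in AP bursting and 0.905 in controls, while AP bursting and control had r = 0.962 at the deep and 0.937 at the shallow depth. The log2 difference of the deep minus the shallow library had a median of 0.49 over the members in AP bursting and 0.29 in controls, against 0.10 and 0.08 over all worked-out genes with a mean of at least 50. For single genes it ran from -1.81 (Tctn1) to 1.94 (Cep55) under AP bursting and from -1.57 (Tctn1) to 1.62 (Cep76) in controls. The 2 differences of a gene went together across the 54 rows (Pearson r = 0.72). This difference followed the GC content of the longest transcript, with r = -0.78 in AP bursting and -0.74 in controls over the 52 rows with a transcript in GENCODE vM21. The same held for all genes with a mean of at least 50 (r = -0.68 and -0.72). The log2 fold between groups was less related to GC content among the members, with Pearson r = 0.02 for the group means, -0.05 for the deep pair and 0.15 for the shallow pair. Spearman rho was 0.18, 0.0007 and 0.26 in the same order. Over all genes with a mean of at least 50, Pearson r was 0.06, -0.03 and 0.12. These correlations are across genes of the same 4 libraries and are given as descriptions. Median GC content was 46.5% for the members and 49.7% for all genes, and median transcript length 3992 and 3364 bases.

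**Figure D4:**
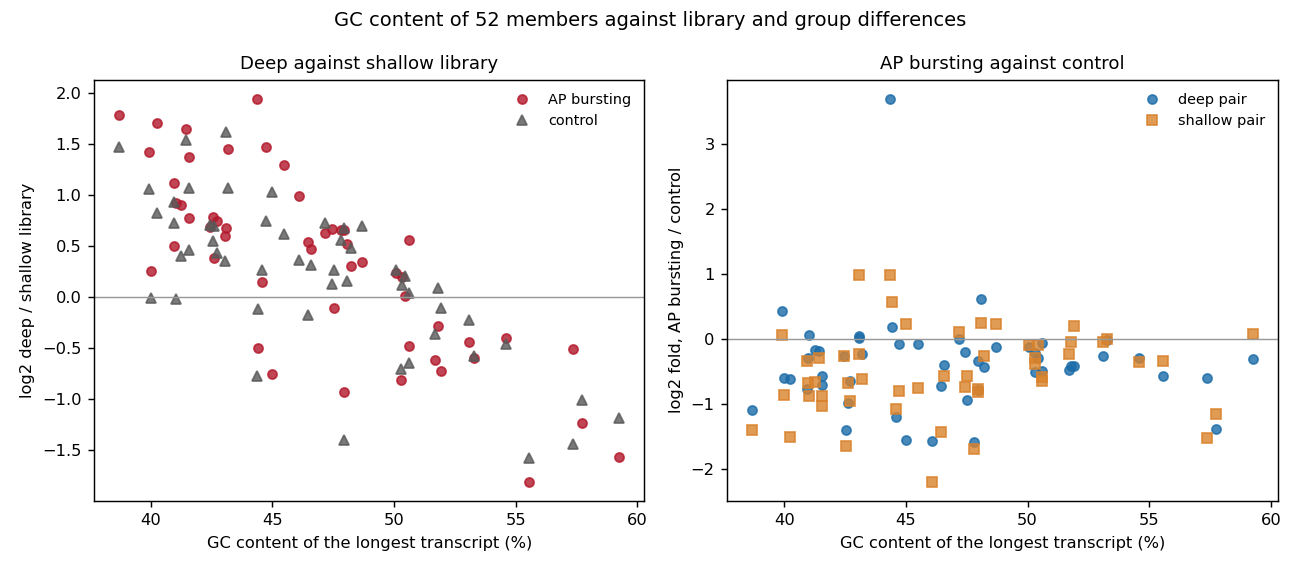
GC content of the longest transcript (horizontal axes, %) for 52 member rows, against the log2 ratio of deep over shallow library in each group (left) and against the log2 fold of AP bursting over control in each pair (right). The library ratio slopes down with GC content in both groups, while the folds lie mostly below 0 at all GC contents.

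Genes of the same structures that the naming pattern missed were taken from lists, described here by counts. Of 18 other transport and motor genes 14 had lower means, with a median log2 fold of -0.18; limma with the replicate block called 4 lower and 0 higher, against 6.1% and 6.84% of all genes. Ttc26, the IFT-B subunit IFT56, had 131 and 98.4 normalized reads under AP bursting, against 269 and 260 in controls (limma with the block: log2 fold -1.21 ± 0.25 SE, adjusted p = 4.00e-05; 0.999953 without the block and 1 in the authors' deposited table). Wdr60, an intermediate chain of the IFT dynein, had 121 and 78.7 against 184 and 254 (limma with the block: log2 fold -1.14 ± 0.26 SE, adjusted p = 0.000278; 0.999953 without the block and 1 in the authors' deposited table). Both genes were below control in each pair. The kinesin motor gene Kif3a had 5695 and 5675 against 6255 and 5980, and the dynein heavy chain Dync2h1 had 782 and 1005 against 826 and 859.

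Of 18 other transition zone genes 14 had lower means, with a median log2 fold of -0.28, and the block fit called 5 lower (6.1% of all genes) and 0 higher (6.84%). Tmem216, a membrane protein of the ciliary gate, had 48.0 and 34.8 normalized reads under AP bursting, against 88.4 and 70.0 in controls. Tmem138, another, had 117 and 78.7 against 179 and 184, and for both genes the groups did not overlap. Of 18 BBSome partners and ciliary small GTPases 12 had lower means, with a median of -0.15, and 0 were called lower and 1 higher, Unc119b, a carrier of lipid-modified ciliary cargo, with 1112 and 1760 against 718 and 891. The other gene named there, Rab3ip, an exchange factor for Rab8, had a log2 fold of 0.51 from the group means.

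Of 29 other centriole and pericentriolar genes 25 had lower means, with a median log2 fold of -0.22, and the block fit called 6 lower (6.1% of all genes) and 2 higher (6.84%). Stil, needed to form new centrioles, was the 1 gene of the cilium and centriole lists past the authors' threshold. The authors' deposited table gives it a fold of 11.7 (adjusted p = 0.000338). It had 118 and 518 normalized reads under AP bursting, against 22.5 and 31.7 in controls. Its assembly partners were lower: Sass6, the cartwheel protein, had 77.1 and 28.8 against 172 and 89.7, and Cenpj 31.5 and 24.2 against 88.4 and 61.2. Azi1, a centriolar satellite protein also known as Cep131, had 170 and 280 against 381 and 905 (limma with the block: log2 fold -1.42 ± 0.22 SE, adjusted p = 6.74e-09; 0.999953 without the block and 1 in the authors' deposited table). Stil and Azi1 each had groups that did not overlap.

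**Figure D5:**
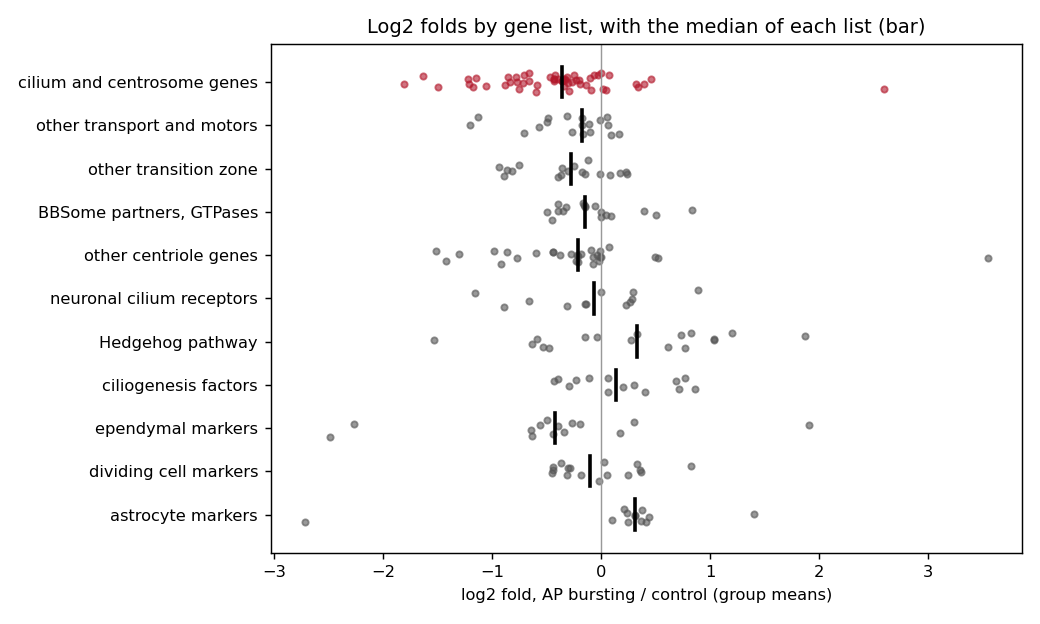
Log2 fold of AP bursting over control from the group means (horizontal axis) for each gene of 11 lists, with the median as a bar. The members and the other transport, transition zone and centriole lists have medians between -0.36 and -0.18, the ependymal marker list -0.42, the Hedgehog list 0.33 and the astrocyte list 0.31.

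What the cilium carries did not follow one direction. Of 12 receptors and enzymes of the neuronal cilium 6 had lower means and 6 higher ones, with log2 folds up to 0.89. The block fit called 3 lower (6.1% of all genes) and 1 higher (6.84%). The genes named next are all from the lower ones. Adcy3, the adenylyl cyclase used as a marker of neuronal cilia, had 1104 and 1639 normalized reads under AP bursting, against 1393 and 1632 in controls. Sstr3, a somatostatin receptor of the cilium, had 609 and 176 against 662 and 581, a difference carried by the shallow pair. The neuropeptide Y receptor Npy2r had 118 and 66.6 against 250 and 163, and the serotonin receptor Htr6 61.4 and 154 against 126 and 275, lower in both pairs.

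Hedgehog signalling runs through the cilium. Of 17 rows of its genes 10 had higher means, with a median log2 fold of 0.33, and the block fit called 4 higher (6.84% of all genes) and 1 lower (6.1%). The pairs differed: 9 of 17 rows were lower in the deep pair (median -0.03) and 6 in the shallow pair (median 0.55). Ptch1, the Hedgehog receptor and a target gene of the pathway, had 1195 and 2012 normalized reads under AP bursting, against 778 and 782 in controls (limma with the block: log2 fold 0.99 ± 0.19 SE, adjusted p = 4.60e-06; 0.999953 without the block and 1 in the authors' deposited table). Boc, a co-receptor, had 564 and 884 against 268 and 362. Among 14 rows of ciliogenesis factors 9 had higher means, and the block fit called 1 lower (6.1% of all genes) and 2 higher (6.84%). Here too the direction turned between pairs, with 8 rows lower in the deep pair (median -0.11) and 5 in the shallow pair (median 0.20). Rfx4 had 263 and 395 against 161 and 200, Rfx3, a regulator of ciliary genes, 205 and 569 against 438 and 607, and Rfx2 13.4 and 123 against 33.0 and 51.4, with pairs of opposite sign.

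Cultures hold other cells with cilia, so cell type markers were set beside these values. Of 14 ependymal and motile cilium markers 11 had lower means, with a median log2 fold of -0.42. Their summed normalized reads were 941 and 895 under AP bursting, against 1114 and 1102 in controls, and the block fit called 2 lower (6.1% of all genes) and 1 higher (6.84%). Most of these genes were low, and only 4 of the 14 reached a mean of 50. Spag16 and Ccdc153, both of motile cilia, were at 0 in the shallow AP bursting library, and 0 of the 14 were at 0 in a control library. Both genes were near the floor: Spag16 had 3 and 0 reads against 5 and 7, and Ccdc153 4 and 0 against 3 and 2. Foxj1, the master factor of motile cilia, had 165 and 310 against 149 and 236, and Ccdc39 379 and 180 against 513 and 363. Of 12 astrocyte markers 11 had higher means, with sums of 22994 and 34434 under AP bursting, against 21005 and 25257 in controls. Of 10 neuron markers 8 had higher means and 2 lower ones, with deposited sums of 257688 under AP bursting and 212528 normalized reads in controls. The largest folds were those of Nefl (23525 against 11089) and Nefm (19597 against 10444.5). Only 1 of the 10 could be worked out per library, and it was lower in both pairs (1712 and 886 against 1745 and 1285). Among 11 oligodendrocyte markers 10 had higher means, but 8 were lower in the deep pair and 2 in the shallow pair. Higher means were also found for 8 of 10 microglia markers and 6 of 10 fibroblast and endothelial markers. The microglia markers were low, and 0 of them reached a mean of 50. The part of these cell types in the folds of the members was not tested.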

How the data were processed

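RNA was measured in 4 libraries, and 0 columns of single samples were left out. Per the submitters' processing notes, the build was mm9, with DESeq 1.12.0, SAMtools 0.1.19 and TopHat 1.2.0 named as tools; of the annotation and counter, the name is not given in the sources used here. Libraries carried no strand information, per the labels, so reads of overlapping and antisense genes cannot be told apart. Per the file headers, the deposited table holds normalized signal (counts after scaling), 1 mean per group, the ratio (fold) of AP bursting over basal activity and the authors' adjusted p-value.

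Each mean was split into 2 whole read counts, 1 per library, accepting a pair that returned the printed value to within its rounding (10 digits, with a margin of 1.05 times). This succeeded for 99.4% of AP bursting means and for 98.8% of control means, and for all 54 member rows. Of 2000 means moved at random, 5 AP bursting and 6 control ones found a pair. The splitting and the fit were tested on simulated data. Planned counts per library were not in the file, so the authors' adjusted p served as the main test.

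The values of the 20223 genes whose mean reached 1 were fitted as log2(normalized reads + 1) by limma 3.58.1 (R 4.3.3) with a variance trend, with Benjamini-Hochberg adjustment, without and with a replicate block. Such folds understate changes of low genes. The columns carry no replicate number. Deep and shallow libraries were paired because their difference in AP bursting followed that in controls (r = 0.877 across 13644 genes). The block leaves 1 residual degree of freedom. A leave-one-out fit assumes that the lone library varies like the other group, so its calls are not given.

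Members, lists and the naming rule were chosen with earlier results of these data known. The rule named the Ttc30 rows and, in each role class, the 4 rows with the highest mean and the 4 with the largest absolute log2 fold at a mean of at least 50; in each other list it named the 2 largest folds. The values of 1 member are not reported here on their own. Transcript length and GC content came from GENCODE vM21 and promoters from RefSeq (GRCm38.p6).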

Additional observations from a re-analysis of the deposited data

How the results depend on the processing

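The median log2 fold of the 54 rows, -0.36, was below 0 in every setting run. It was -0.53 with scaling to the total of the table, which moves all genes by -0.17, and -0.54 in the shallow pair alone, a setting added after the data were seen. Leaving out 1 library gave -0.67 to -0.26 (-0.67 without the deep AP bursting and -0.52 without the shallow control library), and lower rows numbered 36 without the shallow AP bursting library. No member passed in the authors' table, where 0.61% of all rows were called higher and 0% lower. None passed in limma without a block, which called 0 of all 20223 genes in either direction. With the replicate block, 16 members were lower and 1 higher. At a mean of at least 50 these numbers were 15 and 0, and with no filter on low values 15 and 1. They were 12 and 1 with a pseudocount of 10. With scaling to the total reads of the worked-out genes they were 20 and 1, and without the trend both were 0. Those totals leave out the genes that could not be worked out. Lower calls over all genes moved too: 1234 of 20223 with the block, 977 of 13645, 1178 of 23159, 937 of 20223 and 1891 of 20223 in the same order of settings, and 0 without the trend. Higher calls over all genes were 1384, 1132, 1357, 1224 and 1006 in that order, and 0 without the trend. All of the 12 members called lower and of each 15 were among the 16, and all 16 were among the 20. For the 29 named genes, 265 of 290 values under other settings had the same sign; Bbs4, Bbs7, Bbs9, Bbs10, Cep120, Cep170, Ift122, Ift172, Nphp4, Tctn1 and Tctn3 changed sign at least once. Depth limits Cep55 most, with 6 and 7 control reads. The cause of these changes was not tested.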
